A study of Homo sapiens with 6 samples.

Results

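The enzymes that make cholesterol and fatty acids, together with the genes that control them, were followed in C4-2B MDVR and CWR22Rv1 prostate cancer cells treated with inhibitors of the chaperone HSP70. The set holds 34 named genes of the 60658 gene identifiers in the files. Of these, 18 encode enzymes of the sterol pathway, 10 encode enzymes of fatty acid and lipid synthesis and 6 are control and transport genes, namely 5 regulators and 1 sterol carrier. Members were matched by symbol through GENCODE 29, and each had 1 identifier. Cells received DMSO as vehicle, apoptozole (APO, 10 µM) or VER155008 (VER, 10 µM), and RNA was taken after 48 h. The C4-2B MDVR cells descend from LNCaP by way of C4-2B, were made resistant to enzalutamide and were kept in medium containing 20 µM of enzalutamide, an antiandrogen drug. CWR22Rv1 is a castration-resistant line and was kept without enzalutamide, so line and enzalutamide cannot be told apart. The titles name C4-2B MDVR, while the source field of the same libraries names LNCaP-C4-2B and the cell type field reads parental for all 6.

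Cholesterol is built from acetyl-CoA through mevalonate, squalene and lanosterol, and fatty acids are built from the same acetyl-CoA by carboxylation, chain synthesis, elongation and desaturation. Both branches are switched on by the SREBP transcription factors, which SCAP carries from the endoplasmic reticulum to the Golgi for cleavage and which INSIG proteins hold back when sterols are plentiful. SREBF2 encodes the factor best known for the sterol branch and SREBF1 the factor best known for the fatty acid branch. In prostate cancer, fatty acid synthase is well known for high expression and for its response to androgen.

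The values are FPKM, sequenced fragments scaled by transcript length and by library size, which can be compared between genes because they are scaled by length. Each of the 6 conditions had a single library, so no difference below has a replicate check and no test was made. A change is log2(FPKM + 0.1) with an inhibitor minus the same quantity with DMSO, within a line. Where 3 levels of a gene are given for a line, they stand in the order DMSO, APO, VER. The words rose and fell are used for changes above 1.2-fold. The share of all compared genes past the same limit is given with the counts of members in each contrast. The APO and VER contrasts of a line share 1 DMSO library. All 34 members were above 0.1 FPKM in at least 1 library of each line and so passed the filter on low values, and 33 were above 1 FPKM in all 6 libraries.

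Read totals are not part of the files, and the relative depth read from low values ranged from 1 to 1.64 times that of the C4-2B MDVR DMSO library. The C4-2B MDVR APO library had the highest value, 1.64, and the next highest was 1.27, in the CWR22Rv1 APO library. The 6 prostate epithelium markers examined, KLK2, KLK3, TMPRSS2, FOLH1, KRT8 and KRT18, were all above 0.1 FPKM in all 6 libraries. Their summed level was between 589 and 996 FPKM, but KLK2, KLK3 and TMPRSS2, known as androgen-responsive genes, fell more than 2-fold with APO in both lines. KLK2 was at 229, 15.9 and 46.5 FPKM in C4-2B MDVR and at 83.4, 7.91 and 52.0 FPKM in CWR22Rv1 cells, in the order DMSO, APO, VER. The keratins KRT8 and KRT18 were higher with APO than with DMSO in both lines. The part of these changes in the results on lipid genes was not tested. Of 5 markers of stroma, blood and vessel, PTPRC and PECAM1 were at or below 0.1 FPKM throughout, and the summed level of the 5 lay between 5.10 and 10.9 FPKM, most of it COL1A1. The CWR22Rv1 APO library stood apart in its mitochondrial RNA, which took 10.4% of all FPKM against 25.7% in either other library of that line. Among C4-2B MDVR libraries the share was between 14.8% and 16.4%. The part of this difference in the results was not tested. Values after scaling without mitochondrial genes are given for the sterol medians with APO and for some genes.

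With APO the median of the fatty acid enzymes fell in both lines and that of the sterol enzymes fell in CWR22Rv1 cells. In C4-2B MDVR cells with APO, the median change of the 10 fatty acid enzymes was -1.22 on the log2 scale, while that of the 18 sterol enzymes was 0.04. In CWR22Rv1 cells the medians were -1.10 for the fatty acid and -0.77 for the sterol enzymes. For VER the fatty acid medians were -0.28 in C4-2B MDVR cells against -0.30 in CWR22Rv1 cells, and the sterol medians were 0.29 and 0.08. The median of all compared genes lay between -0.01 and 0 in the 4 contrasts.

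**Figure D1:**
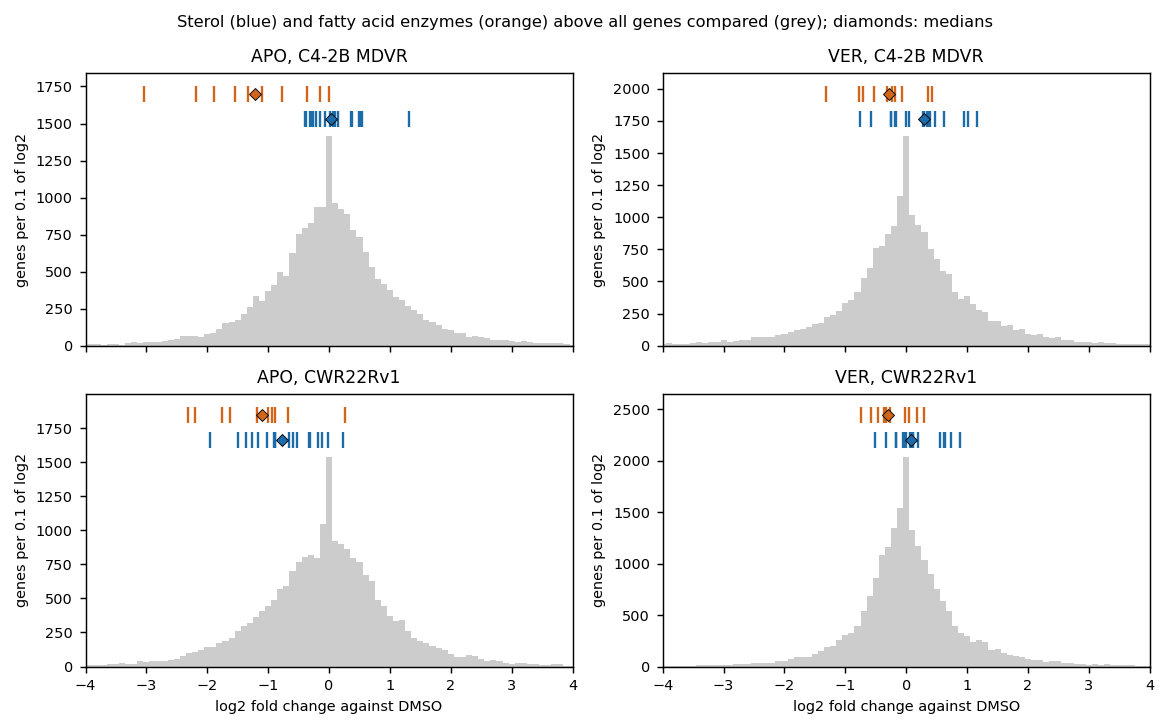
Histograms of the log2 fold change against DMSO of all compared genes (grey, number of genes per bin of 0.1, changes beyond 4 in either direction not drawn), with 1 tick for each sterol enzyme (blue) and fatty acid enzyme (orange) and diamonds at the branch medians. With APO in C4-2B MDVR cells the orange median is at -1.22 and the blue median at 0.04, and with APO in CWR22Rv1 cells both lie below 0, at -1.10 and -0.77.

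The counts ran the same way. With APO in C4-2B MDVR cells, 8 of 10 fatty acid enzymes fell and 0 rose, and 4 of 18 sterol enzymes fell and 6 rose, where 35.4% of all genes fell and 37.7% rose. With APO in CWR22Rv1 cells, 9 fatty acid and 14 sterol enzymes fell, where 39.2% of all genes fell, and LPIN1 was the 1 member that rose, against 35.6% of all genes. With VER in C4-2B MDVR cells, 10 sterol and 2 fatty acid enzymes rose and 2 and 5 fell, where 35.6% of all genes rose and 34.9% fell. With VER in CWR22Rv1 cells, 5 sterol and 1 fatty acid enzymes rose and 2 and 6 fell, where 32.1% of all genes rose and 32.3% fell. Over all 34 members, 15 fell and 7 rose with APO in C4-2B MDVR cells, and 19 fell and 5 rose after each library was scaled to the same sum, when 42.3% of all genes fell and 32.1% rose. In CWR22Rv1 cells 28 members fell with APO, 9 with VER. SREBF1 was the 1 member that fell more than 2-fold with VER in CWR22Rv1 cells, where 8.92% of all genes did and 0 members rose that far, against 10.8%.

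The members are well expressed, and changes above 2-fold are rarer among genes above 1 FPKM in all 3 libraries of a line. Of such genes, 7.05% fell and 7.8% rose more than 2-fold with APO in C4-2B MDVR cells, against 7 and 1 of 33 members. With VER in that line 6.51% fell and 7.19% rose, against 1 and 2 of 33 members. In CWR22Rv1 cells 9.23% fell and 8.02% rose with APO, against 16 and 0 of 34 members, and 2.45% fell and 2.88% rose with VER, against 1 and 0. At 1.2-fold the shares of these genes that fell and rose were in C4-2B MDVR cells 32.7% and 34.3% for APO and 32.5% and 32.5% for VER, and in CWR22Rv1 cells 35.5% and 35.5% for APO and 29.8% and 26.1% for VER.

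**Figure D2:**
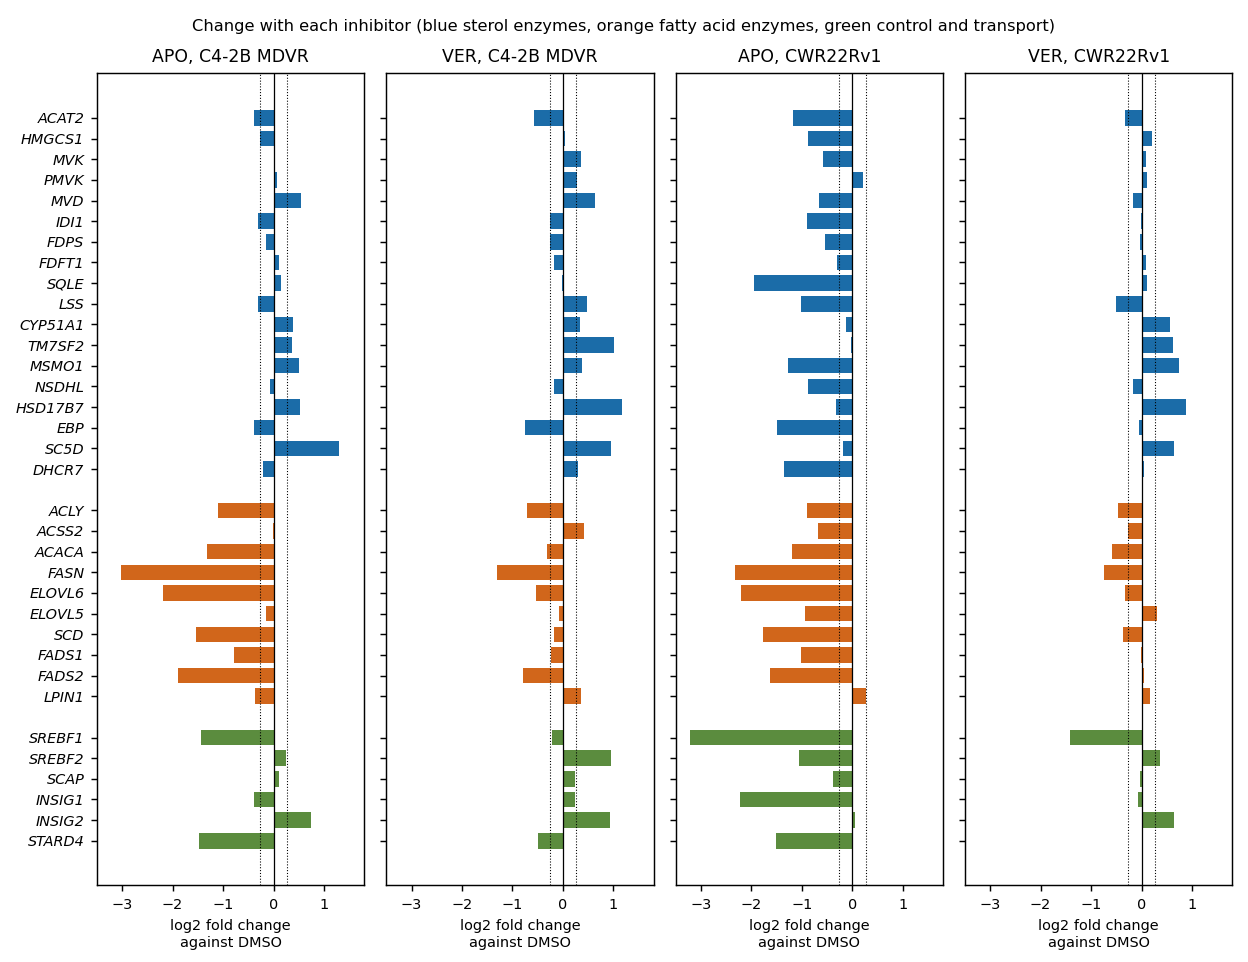
Log2 fold change against DMSO of each of the 34 genes in the 4 contrasts, with sterol enzymes in blue in pathway order, fatty acid enzymes in orange and control and transport genes in green. Dotted lines mark 1.2-fold in either direction. The longest bars are those of SREBF1 with APO in CWR22Rv1 cells, at -3.21, and of FASN with APO in C4-2B MDVR cells, at -3.03.

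SREBF1 had the largest change of all members in CWR22Rv1 cells. SREBF1 (chromosome 17 of GRCh38, 17810399 to 17837002, minus strand) was at 194, 71.9 and 167 FPKM in C4-2B MDVR cells. The CWR22Rv1 levels were 59.4, 6.31 and 22.1 FPKM. It was thus lowest with APO in both lines, and it also fell with VER in CWR22Rv1 cells. The log2 changes of SREBF1 in C4-2B MDVR cells were -1.43 with APO and -0.21 with VER, against -3.21 and -1.42 in the other line. SREBF1 shares 6.92% of its exonic bases with RAI1 on the opposite strand, and the counting is not stated to use strand.

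SREBF2 (chromosome 22, 41833079 to 41907308, plus strand) followed another course. SREBF2 was at 49.3, 58.7 and 95.2 FPKM in C4-2B MDVR cells and at 60.0, 28.8 and 77.5 FPKM in CWR22Rv1 cells. VER was the highest of the 3 libraries in both lines, with changes of 0.95 and 0.37. With APO the change was 0.25 in C4-2B MDVR cells, short of 1.2-fold, and -1.06 in CWR22Rv1 cells. In C4-2B MDVR cells with DMSO, SREBF1 was thus well above SREBF2 in FPKM, and in CWR22Rv1 cells the levels of the 2 genes were close.

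The INSIG genes, whose proteins keep SCAP and the SREBPs in the endoplasmic reticulum, also parted. INSIG1 (chromosome 7, 155297776 to 155310235), itself a well-known SREBP target, was at 68.8, 52.5 and 81.5 FPKM in C4-2B MDVR cells. The CWR22Rv1 levels were 27.6, 5.86 and 26.1 FPKM. INSIG1 fell with APO in both lines, with log2 changes of -0.39 in C4-2B MDVR cells against -2.22 in CWR22Rv1 cells, and its changes with VER were 0.25 and -0.08. INSIG2 (chromosome 2, 118088452 to 118110997) was at 8.86, 15.0 and 17.0 FPKM in C4-2B MDVR cells and at 6.77, 6.99 and 10.6 FPKM in CWR22Rv1 cells. It rose with VER in both lines, by 0.93 and 0.63, and with APO in C4-2B MDVR cells, by 0.75, while its change with APO in CWR22Rv1 cells was 0.05. INSIG2 fell in no contrast.

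SCAP, the escort protein of the SREBPs, changed little. Its level was between 46.3 and 63.0 FPKM in the 6 libraries, and it passed 1.2-fold once, with a change of -0.37 with APO in CWR22Rv1 cells. STARD4, a soluble carrier of cholesterol, was nearly silent in C4-2B MDVR cells, at 0.438, 0.0929 and 0.285 FPKM with DMSO, APO and VER. In CWR22Rv1 cells it was at 10.6, 3.63 and 10.8 FPKM, and the change with APO was -1.52. The C4-2B MDVR level was near the pseudocount, and the change with APO moved from -1.48 to -2.12 with a pseudocount of 0.01 and to -0.40 with 1.

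The promoters of the members were searched for the letters of the sterol element, of the CCAAT and GGGCGG boxes and of the E-box CACGTG. SREBPs are known to act at the sterol element with a partner, and the members are taken to share this control. RefSeq windows of 300 bases (GRCh38.p14, from 250 before to 50 after a start) were found for 30 of the 34 members, and ACAT2, FDFT1, SQLE and FASN had no entry. The sterol element was searched as TCACNCCAC on both strands. It was in the window of 1 of 30 members, SREBF2, and of 1.39% of the 27305 genes with a window. CCAAT, the box bound by NF-Y, was searched on both strands as well and was in 22 of 30 members, or 73.3%, against 39.7% of all genes. Among sterol enzymes 13 of 15 held it, among fatty acid enzymes 6 of 9. GGGCGG, a box of Sp1, was in 28 of 30 members and 48.3% of all genes, and the E-box CACGTG in 5 of 30 members and 8.77% of all genes. In the SREBF2 window the sterol element begins at -133 and the CCAAT box, on the opposite strand, at -106 from the start, and they do not overlap. The 27305 genes were counted whether or not they were expressed in these cells, and no share among expressed genes was taken. A match of letters is a description and no measure of binding.

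The windows of 4 genes, cut to the bases upstream of the first annotated base of the gene and given 5′ to 3′ on the strand of the gene, show these elements. SREBF2 is shown because it alone holds the sterol element. INSIG1, MSMO1 and SCD are shown as 1 gene of each group with a large change with APO in CWR22Rv1 cells, and were chosen after their values were seen. Capitals mark the sterol element TCACCCCAC in SREBF2 and CCAAT, or ATTGG where it lies on the other strand. The stretches are chr22:41832855-41833078, chr7:155297628-155297775, chr4:165327419-165327622 and chr10:100346983-100347123 of GRCh38.p14, all on the plus strand.
SREBF2: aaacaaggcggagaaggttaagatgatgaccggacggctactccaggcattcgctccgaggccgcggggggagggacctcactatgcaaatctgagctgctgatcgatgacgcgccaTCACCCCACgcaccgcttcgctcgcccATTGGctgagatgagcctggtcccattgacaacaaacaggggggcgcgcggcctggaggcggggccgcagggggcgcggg
INSIG1: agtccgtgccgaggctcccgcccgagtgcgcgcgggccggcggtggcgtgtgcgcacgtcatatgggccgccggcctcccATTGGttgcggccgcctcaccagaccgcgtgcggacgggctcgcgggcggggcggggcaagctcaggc
MSMO1: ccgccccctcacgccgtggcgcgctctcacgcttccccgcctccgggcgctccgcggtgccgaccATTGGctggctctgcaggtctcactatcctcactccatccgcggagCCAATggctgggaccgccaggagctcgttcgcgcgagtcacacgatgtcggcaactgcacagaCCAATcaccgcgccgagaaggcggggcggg
SCD: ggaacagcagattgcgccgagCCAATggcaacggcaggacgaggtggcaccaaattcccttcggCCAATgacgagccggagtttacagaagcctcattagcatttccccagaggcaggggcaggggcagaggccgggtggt

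ACLY, ACACA, FASN, ELOVL6 and SCD, which lead from citrate to monounsaturated fatty acids, all fell with APO in both lines. ACLY, which splits citrate into acetyl-CoA, was at 141, 65.5 and 86.6 FPKM in C4-2B MDVR cells, and at 77.9, 42.0 and 56.5 FPKM in CWR22Rv1 cells. ACLY fell with both inhibitors in both lines. Its C4-2B MDVR changes were -1.11 with APO and -0.70 with VER, against -0.89 and -0.46 in CWR22Rv1 cells. ACACA, the acetyl-CoA carboxylase that commits carbon to fatty acids, was at 76.7, 30.5 and 61.3 FPKM in C4-2B MDVR cells and at 31.1, 13.6 and 20.8 FPKM in CWR22Rv1 cells. The changes of ACACA with APO were alike in the 2 lines, at -1.33 and -1.19.

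FASN (chromosome 17, 82078333 to 82098332, minus strand), the fatty acid synthase, fell furthest of the enzymes in both lines. In C4-2B MDVR cells it was at 264, 32.1 and 106 FPKM with DMSO, APO and VER. The CWR22Rv1 levels were 109.9, 21.9 and 65.7 FPKM. APO gave the lowest and VER an intermediate level in both lines. In C4-2B MDVR cells the folds were 8.18 with APO and 2.48 with VER, against 5.01 and 1.67 in CWR22Rv1 cells, all downward. FASN was the 1 enzyme of the 28 in either branch that fell more than 2-fold with VER, and this was in C4-2B MDVR cells, where 13.3% of all genes did so.

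The elongase ELOVL6, which lengthens the product of FASN, was at 19.4, 4.16 and 13.4 FPKM in C4-2B MDVR cells and at 53.7, 11.6 and 42.6 FPKM in CWR22Rv1 cells. Its change with APO was -2.19 in C4-2B MDVR cells against -2.20 in CWR22Rv1 cells, although the line with the lower level of FASN had the higher level of ELOVL6. SCD, the desaturase that makes monounsaturated fatty acids, was at 151, 51.6 and 133 FPKM in C4-2B MDVR cells. In CWR22Rv1 cells SCD was at 83.8, 24.6 and 65.1 FPKM. The changes of SCD with APO were -1.54 and -1.77, and those with VER were -0.18 in C4-2B MDVR cells against -0.36 in CWR22Rv1 cells.

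FADS1 and FADS2 are neighbouring desaturases of polyunsaturated fatty acids on chromosome 11. FADS2 had the highest level of all members, 441 FPKM, in the C4-2B MDVR library treated with DMSO, and was at 119 FPKM with APO and 256 FPKM with VER. In CWR22Rv1 cells FADS2 was at 21.0, 6.72 and 21.8 FPKM. FADS2 thus fell with APO by similar amounts in lines whose levels were far apart, with changes of -1.89 and -1.63, and with VER it fell in C4-2B MDVR cells alone, at -0.78 against 0.05. FADS1 was at 57.4, 33.4 and 48.6 FPKM in C4-2B MDVR cells and at 48.9, 24.3 and 48.4 FPKM in CWR22Rv1 cells, with changes of -0.78 and -1.01 with APO. The genes share 490 exonic bases on opposite strands, 4.79% of FADS1, and a part of the FADS1 value may come from FADS2 if strand was not used.

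The remaining 3 genes of this branch went less far or another way. ELOVL5, an elongase of polyunsaturated fatty acids, was at 163, 147 and 155 FPKM in C4-2B MDVR cells, a change of -0.15 with APO. In CWR22Rv1 cells it was at 117, 61.1 and 144 FPKM, with changes of -0.93 and 0.30. ACSS2, which makes acetyl-CoA from acetate, was at 18.9, 18.8 and 25.3 FPKM in C4-2B MDVR cells and at 10.6, 6.60 and 8.80 FPKM in CWR22Rv1 cells. It rose with VER in C4-2B MDVR cells, at 0.42, and fell with VER in CWR22Rv1 cells, at -0.27, a value that dropped to -0.22, short of 1.2-fold, after scaling to a median ratio of 1. LPIN1, a phosphatidate phosphatase of glycerolipid synthesis, was at 12.1, 9.35 and 15.5 FPKM in C4-2B MDVR cells and at 7.69, 9.26 and 8.70 FPKM in CWR22Rv1 cells. Its change with APO was -0.36 in the first line and 0.27, just past 1.2-fold, in the second, where it was 0.11 when scaled without mitochondrial genes.

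**Figure D3:**
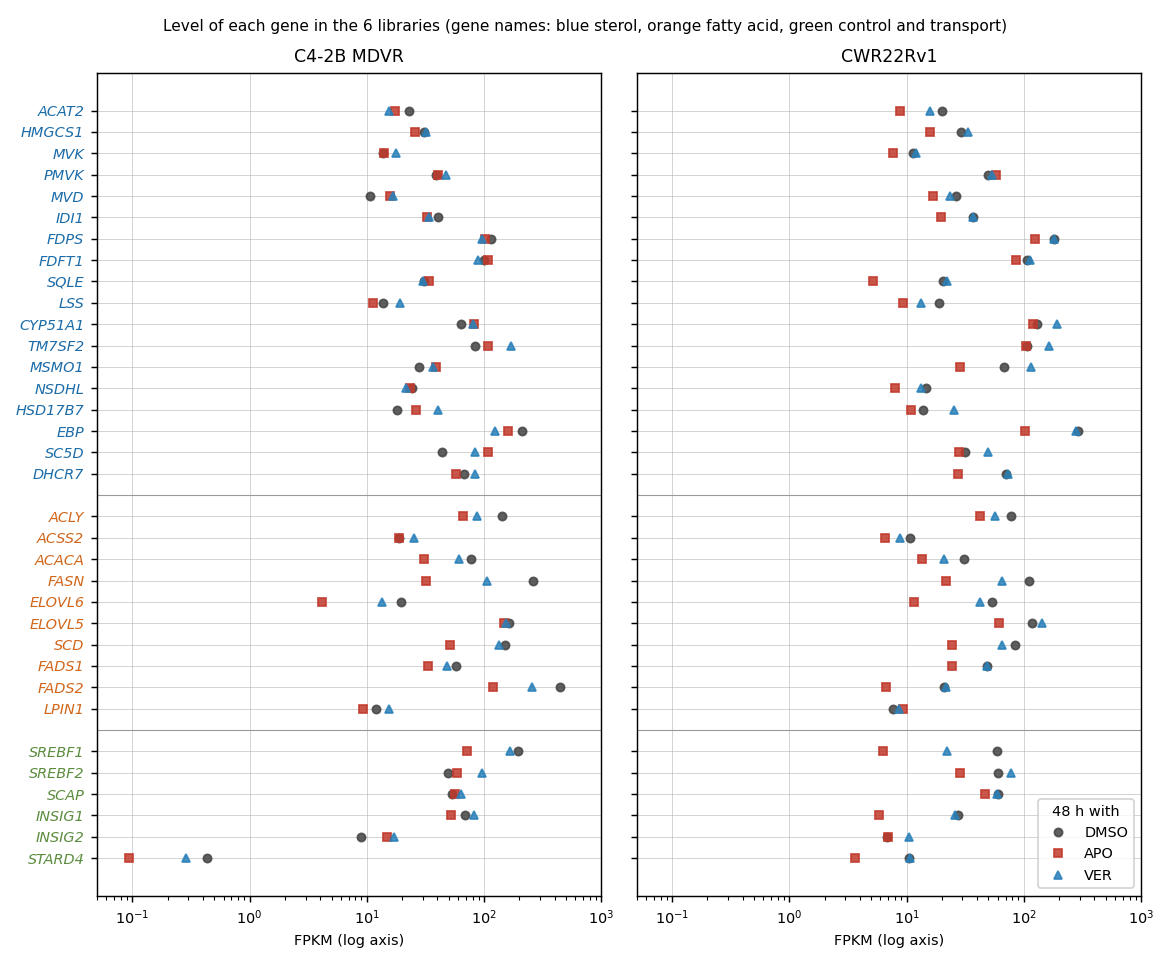
FPKM on a log axis of each of the 34 genes in C4-2B MDVR (left) and CWR22Rv1 cells (right), 1 symbol for each library (circles DMSO, squares APO, triangles VER). The squares of FASN, at 32.1 and 21.9 FPKM, lie far left of its circles at 264 and 109.9 FPKM, while STARD4 lies under 1 FPKM in C4-2B MDVR cells only.

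The summed level of the 10 fatty acid genes was 1343, 511 and 901 FPKM in C4-2B MDVR cells, and 561, 222 and 482 FPKM in CWR22Rv1 cells. FADS2 and FASN were the largest parts of the C4-2B MDVR sum with DMSO, at 441 and 264 FPKM. With APO they were at 119 and 32.1 FPKM in that line. The 18 sterol enzymes summed to 955, 1006 and 1036 FPKM in C4-2B MDVR cells and to 1225, 782 and 1410 FPKM in CWR22Rv1 cells. The fatty acid sum was lowest with APO in both lines, and the sterol sum was lowest with APO in CWR22Rv1 cells but not in C4-2B MDVR cells.

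Of the enzymes from acetyl-CoA to farnesyl diphosphate, most fell with APO in CWR22Rv1 cells. ACAT2, the thiolase of the first step, was at 22.8, 17.5 and 15.3 FPKM in C4-2B MDVR cells and at 20.1, 8.86 and 15.9 FPKM in CWR22Rv1 cells. It fell with both inhibitors in both lines and was the only sterol enzyme to do so, with changes between -1.17 and -0.33. ACAT2 shares 9.23% of its exonic bases with TCP1, an abundant chaperonin gene on the opposite strand. TCP1 was at 244, 158 and 146 FPKM in C4-2B MDVR cells and at 198, 144 and 156 FPKM in CWR22Rv1 cells. It was thus also lower with both inhibitors in both lines. A part of the ACAT2 value may come from TCP1 if strand was not used, which was not tested. HMGCS1, MVK, IDI1 and FDPS, which make HMG-CoA, phosphorylate mevalonate, isomerize isopentenyl diphosphate and join the units to farnesyl diphosphate, fell with APO in CWR22Rv1 cells, with changes from -0.90 to -0.53. Their changes with APO in C4-2B MDVR cells were between -0.31 and 0.02. PMVK, the phosphomevalonate kinase, was at 38.9 to 58.0 FPKM in the 6 libraries, and passed 1.2-fold once, with a change of 0.28 with VER in C4-2B MDVR cells.

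MVD, the mevalonate diphosphate decarboxylase, changed in opposite directions in the lines with APO. It was at 10.7, 15.7 and 16.6 FPKM in C4-2B MDVR cells, where it rose with both inhibitors. In CWR22Rv1 cells it was at 26.6, 16.9 and 23.5 FPKM. The changes with APO were 0.54 and -0.65, so that the level with APO was nearly the same in the 2 lines.

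At the entry to the sterol ring, SQLE (chromosome 8, 124998497 to 125022283), the squalene epoxidase, showed the largest difference between the lines in its change with APO among the enzymes. In C4-2B MDVR cells it was at 30.4, 33.6 and 30.2 FPKM with DMSO, APO and VER, within 1.2-fold. The CWR22Rv1 levels were 20.4, 5.19 and 22.1 FPKM. The change with APO was 0.14 in the first line and -1.95 in the second, and with VER SQLE passed 1.2-fold in neither. FDFT1, the squalene synthase just before it, changed by -0.31 with APO in CWR22Rv1 cells, and its level was between 85.8 and 113 FPKM in all libraries.

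LSS, which closes squalene epoxide to lanosterol, was at 13.8, 11.2 and 19.2 FPKM in C4-2B MDVR cells and at 19.0, 9.37 and 13.4 FPKM in CWR22Rv1 cells. It fell with APO in both lines, and with VER it rose in C4-2B MDVR cells, at 0.47, and fell in CWR22Rv1 cells, at -0.51. CYP51A1, the lanosterol demethylase, rose with VER in both lines and was at 63.3 to 82.1 FPKM in C4-2B MDVR and 119 to 191 FPKM in CWR22Rv1 cells.

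Several enzymes between lanosterol and cholesterol rose with VER in both lines. TM7SF2, a sterol reductase, was at 84.1, 108 and 169 FPKM in C4-2B MDVR cells and at 106, 105 and 163 FPKM in CWR22Rv1 cells. HSD17B7, a ketosterol reductase, was at 18.1, 26.1 and 40.7 FPKM in C4-2B MDVR cells and at 13.8, 11.0 and 25.6 FPKM in CWR22Rv1 cells. Both were highest with VER in each line, with changes of 1.01 and 0.62 for TM7SF2 and of 1.16 and 0.89 for HSD17B7. With APO, HSD17B7 rose in C4-2B MDVR cells, at 0.52, and fell in CWR22Rv1 cells, at -0.32. That fall was -0.21, short of 1.2-fold, after scaling to the same sum. It was -0.47 when scaled without mitochondrial genes and -0.33 at a median ratio of 1. The annotated copy HSD17B7P2, which could share reads with HSD17B7, was at 0.992 to 3.01 FPKM. These were the 2 enzymes that rose more than 2-fold with VER in C4-2B MDVR cells, where 14.4% of all genes did.

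MSMO1 (chromosome 4, 165327623 to 165343160), the methylsterol monooxygenase, was at 27.7, 39.1 and 36.3 FPKM in C4-2B MDVR cells. The levels in CWR22Rv1 cells were 68.2, 28.3 and 114 FPKM. VER raised it in both lines, while APO raised it in C4-2B MDVR cells, at 0.49, and lowered it in CWR22Rv1 cells, at -1.27. SC5D, a sterol desaturase late in the pathway, was at 43.7, 108 and 84.2 FPKM in C4-2B MDVR cells and at 31.8, 28.1 and 49.6 FPKM in CWR22Rv1 cells. SC5D was the only member to rise more than 2-fold with APO in C4-2B MDVR cells, where 15.4% of all genes did so, and its change with APO in CWR22Rv1 cells was -0.18.

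EBP, the sterol isomerase, and DHCR7, the reductase of the last step, were lowest with APO in CWR22Rv1 cells. EBP was at 209.8, 159.8 and 124 FPKM in C4-2B MDVR cells and at 289, 103 and 278 FPKM in CWR22Rv1 cells. DHCR7 was at 67.6, 58.1 and 83.2 FPKM in C4-2B MDVR cells and at 70.8, 27.5 and 73.5 FPKM in CWR22Rv1 cells. VER lowered EBP in C4-2B MDVR cells, at -0.75, the largest fall with VER among the sterol enzymes, while the change in CWR22Rv1 cells was -0.06. NSDHL, a sterol dehydrogenase, fell with APO in CWR22Rv1 cells, at -0.88, and passed 1.2-fold in no other contrast.

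The branches were then set against each other within each contrast. The sterol median exceeded the fatty acid median by 1.26 (APO) and 0.57 (VER) on the log2 scale in C4-2B MDVR cells, and by 0.33 (APO) and 0.38 (VER) in CWR22Rv1 cells. With APO in C4-2B MDVR cells 7 of the 10 fatty acid genes lay below the lowest sterol enzyme, EBP at -0.39. There 35.4% of all genes fell above 1.2-fold and 23.1% above 1.5-fold, limits on either side of this value. In each other contrast 2 of the 10 lay below the lowest sterol enzyme. With VER in C4-2B MDVR cells this was EBP at -0.75, where 22.4% of all genes fell above 1.5-fold and 13.3% above 2-fold. In CWR22Rv1 cells with APO it was SQLE at -1.95, where 16.8% fell above 2-fold. With VER in that line it was LSS at -0.51, where 32.3% fell above 1.2-fold and 17.5% above 1.5-fold. At more than 2-fold, 6 fatty acid and 0 sterol enzymes fell with APO in C4-2B MDVR cells, where 13.3% of all genes did, against 6 and 6 in CWR22Rv1 cells, where 16.8% of all genes did. The differences between the branch medians were also taken under other pseudocounts, filters, scalings and branch memberships. They ranged from 1.24 to 1.301, 0.56 to 0.58, 0.31 to 0.34 and 0.36 to 0.40, in the order given. A scaling shifts both medians of a contrast almost alike, and every enzyme of both branches passed the filters. The scalings and filters could thus hardly move these differences.

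The lines were compared by subtracting the change in CWR22Rv1 cells from that in C4-2B MDVR cells, which share no library. With APO the difference was above 0 for 17 of 18 sterol enzymes, with a median of 0.75, and for 5 of 10 fatty acid genes, with a median of -0.07. The median over 18059 genes was 0.00. It exceeded 2-fold for 6 sterol enzymes, SQLE, MSMO1, SC5D, MVD, DHCR7 and EBP, and for SREBF1, INSIG1 and SREBF2, or 9 of 34 members against 15% of all genes. In the opposite direction 0 members and 9.8% of all genes exceeded 2-fold. At 1.2-fold the numbers were 24 and 2 of 34 members, against 37.1% and 34.8% of all genes. The sterol and fatty acid genes that fell with APO in both lines numbered 4 of 18 and 7 of 10, and over all members 14 of 34, where 21.6% of all genes fell in both lines. With VER 5 of 34 members fell in both lines, where 18.2% of all genes did. The members past 1.2-fold in opposite directions in the lines numbered 4 with APO and 2 with VER, against 13.2% and 11.5% of all genes, so that such members were no more common than other genes. With VER the medians of the difference were -0.07 for sterol and -0.21 for fatty acid enzymes, and 12 members were above and 7 below 1.2-fold, against 33.3% and 32.6% of all genes. Beyond 2-fold the numbers were 1, SREBF1, and 0, against 11.3% and 11.5% of all genes.

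**Figure D4:**
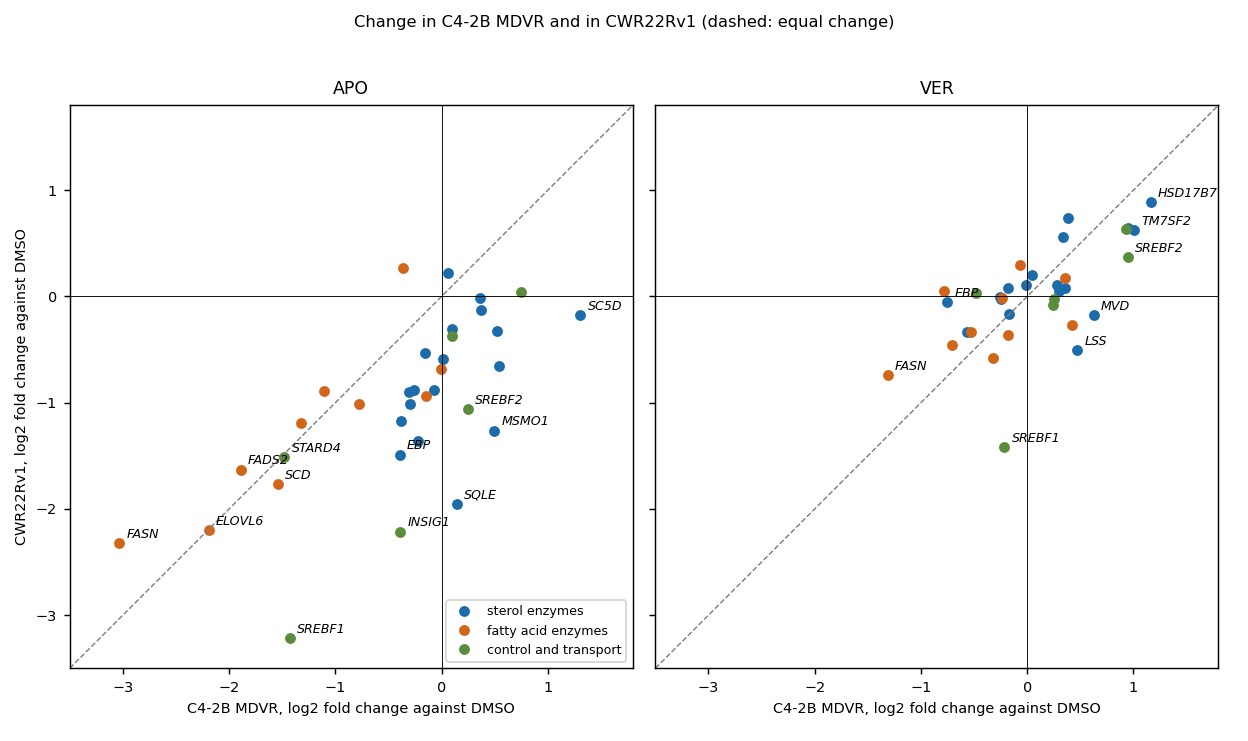
Log2 fold change against DMSO, plotted for C4-2B MDVR (x axis) against CWR22Rv1 cells (y axis) with APO (left) and VER (right), 1 point for each of the 34 genes (blue sterol, orange fatty acid, green control and transport) and a dashed line of equal change. With APO the points of ELOVL6, SCD and FADS2 lie within 1.2-fold of the line, that of FASN lies above it, with a difference of -0.71, and those of 17 of 18 sterol enzymes lie below it.

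The sterol medians with APO, -0.77 in CWR22Rv1 and 0.04 in C4-2B MDVR cells as deposited, were also apart under the other scalings. Scaled without mitochondrial genes, the median of the sterol enzymes with APO was -0.92 in CWR22Rv1 and -0.12 in C4-2B MDVR cells, and scaled to the same sum it was -0.65 and -0.11. The scaling without mitochondrial genes put the median of all genes with APO at -0.15 in CWR22Rv1 and at -0.10 in C4-2B MDVR cells. A direct comparison of the inhibitors gave medians of APO over VER of -0.87 for fatty acid and -0.01 for sterol enzymes in C4-2B MDVR cells, and of -1.11 and -0.77 in CWR22Rv1 cells.

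With DMSO alone most fatty acid genes were higher in C4-2B MDVR cells, while the median of the sterol enzymes was close to that of all genes. The median ratio of C4-2B MDVR to CWR22Rv1 cells was 0.83 on the log2 scale for the fatty acid enzymes and -0.08 for the sterol enzymes, against -0.05 for all genes. Of the 10 fatty acid genes 8 were higher in C4-2B MDVR cells by more than 1.2-fold, where 39.2% of all genes were, and ELOVL6 alone was lower. Of the 18 sterol enzymes 5 were higher and 8 lower, where 39.2% of all genes were higher and 43.2% lower. Beyond 2-fold 5 of the 34 members were higher and 5 lower, where 19.4% and 27.2% of all genes were. The largest gaps were those of FADS2, 20.8-fold higher in C4-2B MDVR cells, and STARD4, 19.8-fold lower on the log2(FPKM + 0.1) scale. SREBF1 was 3.26-fold and INSIG1 2.49-fold higher, and MVD, MSMO1 and CYP51A1 were 2.47-fold, 2.46-fold and 2.04-fold lower in C4-2B MDVR cells.

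Other genes of lipid metabolism were read from lists. Of 6 genes that process the SREBPs or act in the degradation of HMG-CoA reductase, 2, 3, 0 and 3 rose and 1, 1, 4 and 1 fell, in the order APO, VER for C4-2B MDVR and then APO, VER for CWR22Rv1 cells. In this order 37.7%, 35.6%, 35.6% and 32.1% of all genes rose and 35.4%, 34.9%, 39.2% and 32.3% fell, the background for each of the lists. ERLIN2, a protein of the endoplasmic reticulum membrane, was at 26.5, 33.0 and 46.5 FPKM in C4-2B MDVR cells and at 26.8, 21.3 and 38.6 FPKM in CWR22Rv1 cells. Of 10 genes of cholesterol uptake, movement and storage, 5, 6, 4 and 6 rose and 3, 3, 4 and 2 fell in the same order. LRP8, a lipoprotein receptor, fell with both inhibitors in both lines, from 9.25 to 1.54 FPKM with APO in CWR22Rv1 cells. VLDLR, a related receptor, rose with both inhibitors in both lines, from 5.54 to 15.3 FPKM with APO in C4-2B MDVR cells. SCARB1, the receptor for high-density lipoprotein, and TMEM97, a sterol-binding membrane protein, fell with APO in both lines, with changes of -1.14 and -0.89 in C4-2B MDVR and of -1.46 and -1.71 in CWR22Rv1 cells.

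Of 18 further genes of fatty acid synthesis, 17 passed the filter in C4-2B MDVR cells, 16 in CWR22Rv1 cells. In the same order 10, 4, 3 and 5 rose and 6, 4, 11 and 2 fell. The median change of this list with APO was 0.42 in C4-2B MDVR cells and -0.53 in CWR22Rv1 cells. ELOVL2, an elongase of polyunsaturated fatty acids, fell from 3.77 to 0.369 FPKM with APO and 0.563 with VER in the C4-2B MDVR line. In CWR22Rv1 cells it was at 8.31, 3.88 and 6.06 FPKM. ELOVL3, another elongase, fell in all 4 contrasts as well, with changes from -2.58 to -0.76 on the log2 scale. ELOVL3 was at 5.32, 2.27 and 3.10 FPKM in C4-2B MDVR cells and at 0.783, 0.0477 and 0.194 FPKM in CWR22Rv1 cells. The CWR22Rv1 level with APO, which gave the -2.58, was below the pseudocount. HSD17B12, TECR and HACD2, which carry out later steps of each elongation cycle, rose with APO in C4-2B MDVR cells, at 1.03, 0.62 and 0.43, and changed by 0.42, -0.81 and -0.88 in CWR22Rv1 cells. ME1, the malic enzyme that supplies NADPH for fatty acid synthesis, rose in all 4 contrasts. It was at 11.6, 50.4 and 40.3 FPKM in C4-2B MDVR and at 4.33, 11.3 and 5.81 FPKM in CWR22Rv1 cells. Of 13 genes of acyl-CoA and glycerolipid synthesis, of which 12 passed the filter in C4-2B MDVR cells, 4, 5, 3 and 5 rose and 5, 3, 8 and 4 fell. ACSL3, an acyl-CoA synthetase, was at 331, 66.6 and 122 FPKM in C4-2B MDVR and at 41.1, 14.8 and 52.7 FPKM in CWR22Rv1 cells, so that it fell with APO in both lines and with VER in the first alone. ACSL1, of the same family, rose in CWR22Rv1 cells from 7.41 to 20.1 FPKM (APO) and 19.0 FPKM (VER).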

How the data were processed

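Total RNA of 6 cultures was sequenced as paired-end reads. Per the labels, libraries were made with a stranded kit after selection of polyadenylated RNA, while the methods of the study name another kit. The authors aligned reads with HISAT to GRCh38, quantified genes with Cufflinks and deposited FPKM values normalized between libraries by Cuffnorm. Versions and the annotation release are not given in the sources used here. FPKM are not counts, so no count test was made, and depth is known only in relative terms, from ratios of values between 0.001 and 0.05 FPKM.

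Of 60658 identifiers, 57047 matched GENCODE 29, the source of symbols and coordinates. Changes were differences of log2(FPKM + 0.1) for genes above 0.1 FPKM in at least 1 library of the line, called above 1.2-fold and also given at 2-fold. The members, the lists of related genes and the limits were chosen with earlier results of these data known. Described singly were members past 2-fold in at least 1 contrast, members past 1.2-fold in opposite directions in the lines, and the control genes. Other members are given by range and count, and related genes by counts, with examples among those furthest from 0. Some genes of these lists are not reported here. Promoter windows came from RefSeq. Alternatives were pseudocounts of 0.01 and 1, other filters, 3 scalings, folds of 1.5 and 2 and other branch members. Functions were tested on simulated data. Python 3.11.15, pandas 2.3.3, numpy 2.4.6 and matplotlib 3.10.9 were used.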

Additional observations from a re-analysis of the deposited data

Results flagged for a closer look

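The results for 6 genes were flagged because a gene passed 1.2-fold in opposite directions in the 2 lines with the same inhibitor. These were 4 of 34 members with APO and 2 with VER, where 13.2% and 11.5% of all genes did so. Such members were thus no more common than other genes. With 1 library for each condition the difference was not tested. With APO the change in C4-2B MDVR minus that in CWR22Rv1 cells was 1.196 on the log2 scale for MVD, 1.76 for MSMO1 and 0.84 for HSD17B7, all 3 higher in C4-2B MDVR cells, and -0.63 for LPIN1. With VER the difference was 0.98 for LSS and 0.69 for ACSS2. The opposite direction of LPIN1 and ACSS2 rests on values close to 1.2-fold in CWR22Rv1 cells, 0.27 and -0.27. Each dropped below 1.2-fold with a pseudocount of 1, to 0.24 and -0.25, and after scaling to a median ratio of 1, to 0.25 and -0.22. Scaled without mitochondrial genes, LPIN1 was at 0.11 and HSD17B7 at -0.47 with APO in CWR22Rv1 cells. Scaled to the same sum, HSD17B7 was at -0.21 in that contrast.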

How the results depend on the processing

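No paired analysis was possible because each condition has 1 library and the labels carry no replicate numbers. Without replicates, a value was taken to hold when it kept its sign and its side of 1.2-fold, and a count when it stayed within 1.5 times. The medians of the sterol enzymes that lay near 0 or near the limit were the least firm. With APO in C4-2B MDVR cells the median was -0.11 when scaled to the same sum, -0.12 when scaled without mitochondrial genes and -0.0264 with INSIG1 and STARD4 added, and the VER median in that line was 0.262 with these added. The fatty acid median with VER in CWR22Rv1 cells was -0.25 after scaling to a median ratio of 1. The 1 member up with APO in CWR22Rv1 cells became 0 with a pseudocount of 1, a median ratio of 1 or scaling without mitochondrial genes, and 2 with the same sum. Fewer members pass a higher fold by construction. Above 1.5-fold, 2 rose and 9 fell with APO in C4-2B MDVR cells, 6 rose and 4 fell with VER, 0 rose with APO in CWR22Rv1 cells, and 5 rose and 2 fell with VER. Above 2-fold the numbers up and down were 1 and 8, 2 and 1, 0 and 16, and 0 and 1. In the same order, 15.4% and 13.3%, 14.4% and 13.3%, 13.8% and 16.8%, and 10.8% and 8.92% of all genes did so. Of all genes, 25.2% rose and 23.1% fell above 1.5-fold with APO in C4-2B MDVR cells, 23.7% and 22.4% with VER, and in CWR22Rv1 cells 23.8% and 27.5% with APO and 19.1% and 17.5% with VER. Of the other such values 160 held, among them differences between the branches that the scalings and filters could hardly move. Of 144 counts within a branch 114 held and 30 moved by more than 1.5 times, the higher folds among them. Of 698 values of the named members, 668 held, 10 lost and 4 gained the 1.2-fold limit, and 16 close to 0 changed sign. No called value changed direction. Without read totals, the counting error of low values such as those of STARD4 in C4-2B MDVR cells is unknown.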

Other observations

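The branches of the mevalonate pathway that do not lead to sterols were read beside the sterol enzymes. Of 9 genes that make longer isoprenoids, dolichol or ubiquinone or attach isoprenoids to proteins, 5 rose and 1 fell with APO in CWR22Rv1 cells, with a median of 0.40 on the log2 scale, where 35.6% of all genes rose and 39.2% fell. In C4-2B MDVR cells 3 rose and 2 fell with APO, where 37.7% of all genes rose and 35.4% fell. With VER 1 rose and 3 fell in C4-2B MDVR cells, where 35.6% of all genes rose and 34.9% fell. In CWR22Rv1 cells 1 rose and 4 fell with VER, with a median of -0.25, where 32.1% of all genes rose and 32.3% fell. The medians of this list were not taken under other scalings. Scaled without mitochondrial genes, the median of all genes with APO in CWR22Rv1 cells was -0.15, against -0.01 as deposited. FNTA, a subunit of the farnesyl and geranylgeranyl transferases, went from 33.0 to 57.7 FPKM and PGGT1B, a geranylgeranyl transferase subunit, from 12.6 to 21.8 FPKM with APO in CWR22Rv1 cells. DHDDS, a subunit of the enzyme that makes dolichol chains, went from 14.4 to 25.0 FPKM there. PDSS1, which makes the side chain of ubiquinone, fell with both inhibitors in both lines. In the order DMSO, APO, VER it was at 19.3, 7.64 and 6.32 FPKM in C4-2B MDVR and at 13.5, 6.29 and 8.68 FPKM in CWR22Rv1 cells.

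Genes of the oxysterol response gave no common direction. NR1H2, a receptor for oxysterols, rose in all 4 contrasts, by 0.30 to 0.55 on the log2 scale. ABCG1, a sterol exporter, was at 5.88, 6.09 and 11.5 FPKM in C4-2B MDVR cells, in the same order, and at 0.909, 0.155 and 0.457 FPKM in CWR22Rv1 cells. ABCA1, another exporter, was near the pseudocount in most libraries and was at 0.153 FPKM with DMSO but 1.07 FPKM with VER in C4-2B MDVR cells.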
